A study of Homo sapiens with 8 samples.

Results

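The ferritin genes FTL and FTH1 and 5 other genes of cellular iron handling, TFRC, SLC40A1, SLC11A2, ACO1 and IREB2, were followed in KYSE70 and KYSE450, human lines of esophageal squamous cell carcinoma. They were taken by gene symbol and make up 7 of the 48162 genes listed in every library. RNA sequencing of total RNA gave 8 libraries in 4 groups of 2 libraries, 1 from each line. The groups were knockdown of the long noncoding RNA NMR, the control of that knockdown, NMR overexpression, and the control of the overexpression. Knockdown used lentivirus produced in HEK 293T cells, an embryonic kidney line used for packaging, and overexpression used pcDNA3.1 plasmids transfected with Lipofectamine 3000. The titles name the knockdown libraries shRNA (short hairpin RNA) and their controls shcon, and the overexpression controls CON. What the controls received is not further spelled out in the labels, nor is the time of harvest. All cells were grown in RPMI 1640 with serum, at passages 5 to 10. Each line stands for 1 tumour, and a line has 1 library per group, so no group is replicated within a line. Values are given in FPKM, reads per kilobase of gene scaled to library size, a unit inferred from the values themselves.

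Ferritin is a shell of light chains (FTL) and heavy chains (FTH1) that stores iron, and the heavy chain oxidises it. TFRC, the transferrin receptor, takes up transferrin-bound iron, SLC11A2 (DMT1) carries ferrous iron across the endosomal membrane, and SLC40A1 (ferroportin) exports iron from the cell. ACO1 (IRP1) and IREB2 (IRP2) are the iron regulatory proteins. In iron-poor cells they bind iron-responsive elements, short RNA hairpins, which blocks translation of messages with an element in the 5′ UTR and stabilises TFRC mRNA, which has several in its 3′ UTR. Much of this control acts on translation and so lies outside what RNA levels show. In squamous epithelium the same genes serve the iron demand of dividing cells.

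The sequences of these hairpins are printed to show at which end of each message they lie. They come from GENCODE 29 transcripts on GRCh38, read on the strand of the gene. Capitals mark the loop of 6 bases.
FTL: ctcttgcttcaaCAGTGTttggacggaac
FTH1: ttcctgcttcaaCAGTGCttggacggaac
SLC40A1: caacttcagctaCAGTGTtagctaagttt
TFRC site 1: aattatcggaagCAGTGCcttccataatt
TFRC site 2: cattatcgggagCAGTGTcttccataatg
TFRC site 3: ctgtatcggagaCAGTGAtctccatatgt
TFRC site 4: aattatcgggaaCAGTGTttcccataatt
SLC11A2: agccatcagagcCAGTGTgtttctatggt

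The FTL element lies at chr19:48965335-48965363 on the plus strand and the FTH1 element at chr11:61967574-61967602 on the minus strand, both in the 5′ UTR. The SLC40A1 element, at chr2:189580661-189580689 on the minus strand, lies in the 5′ UTR of 1 of 5 coding transcripts. The TFRC matches lie on the minus strand in the 3′ UTR, at chr3:196050979-196051007, chr3:196050575-196050603, chr3:196050510-196050538 and chr3:196050463-196050491. The SLC11A2 match, at chr12:50988269-50988297 on the minus strand, lies in the 3′ UTR of 5 of 18 coding transcripts. The motif searched on the transcript strand was C, then 5 bases of any kind, then the loop CAGTGN with N any base except G, then 5 bases of which at least 4 pair with those before the loop, G-T pairs included. All 5 positions pair in each sequence above except SLC11A2, where 4 do. ACO1 and IREB2 each hold a single match with 4 pairs in the 3′ UTR as well, which is not printed. The elements of FTL, FTH1, TFRC, SLC40A1 and SLC11A2 are known from other work, and the search alone does not set SLC11A2 apart from ACO1 and IREB2. Of 19669 coding genes, 1406 (7.15%) hold the motif in their longest coding transcript and 189 (0.961%) hold it with all 5 pairs. A match is a description of sequence and not evidence of binding.

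All 7 genes are annotated as protein coding. In the same coordinates FTL lies at chr19:48965301-48966878, FTH1 at chr11:61959718-61967660, TFRC at chr3:196027183-196082189 and SLC40A1 at chr2:189560579-189583758. SLC11A2 lies at chr12:50979401-51028566, ACO1 at chr9:32384603-32454769 and IREB2 at chr15:78437431-78501456.

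Recovered reads ran from 26401805 to 37937856 per library, and 1 read per kilobase came to 0.0264 to 0.0379 FPKM. The labels do not say that libraries came from separate cultures. No group is replicated within a line, so the p-values rest on how far group differences disagreed between the lines. Responses particular to a line and technical spread are both in that disagreement and cannot be told apart. No listed gene is named NMR, and NMR itself was not analysed here. All 10 squamous epithelial markers averaged 1 FPKM or more, as did 2 of 6 fibroblast and 1 of the 2 listed endothelial markers. Of the 3 endothelial markers looked for, 1 was not listed. Of the others, 0 of 5 leukocyte, 0 of 5 erythroid and 0 of 4 hepatocyte markers averaged 1 FPKM or more. The KYSE70 knockdown library stood apart. Its share of FPKM from mitochondrially encoded genes was 8.63%, and that of the other 7 libraries 3.84% to 5.75%. Its log2 difference from its control fell with GC content across genes (Spearman rho -0.49, against 0.05 in the KYSE450 knockdown pair), though genes are no independent replicates. Every KYSE70 knockdown value below comes from this 1 library.

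Ferritin messages were far more abundant in KYSE70 than in KYSE450, the light chain most of all. FTL stood at 3144 FPKM with knockdown, 1649 in the knockdown control, 2405 with overexpression and 2338 in the overexpression control of KYSE70. In KYSE450 it stood at 276.0, 251.1, 199.8 and 213.6 FPKM in the same groups. The lowest KYSE70 library thus lay above the highest KYSE450 library, and the means were 2384 ± 611 FPKM in KYSE70 and 235 ± 34.8 FPKM in KYSE450 (SD, n = 4 libraries each), a ratio of 10.1. The log2 difference was 3.31 (SE 0.19, adjusted p 1.92e-05 in limma). FTL ranked 11 to 32 among all genes in the KYSE70 libraries and 398 to 562 in the KYSE450 libraries.

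FTH1 followed the same order between the lines with a smaller gap. It stood at 349.1 FPKM with knockdown, 939.8 in the knockdown control, 954.6 with overexpression and 1059 in the overexpression control of KYSE70. The KYSE450 libraries held 309.7, 243.2, 275.6 and 312.8 FPKM in the same groups. The KYSE70 knockdown library lay well below the other KYSE70 libraries and close to the KYSE450 range, though still above it. The means were 826 ± 322 FPKM in KYSE70 and 285 ± 32.8 FPKM in KYSE450 (SD, n = 4 each), a ratio of 2.89, with a log2 difference of 1.42 (SE 0.30, adjusted p 0.00654 in limma). FTL and FTH1 together made up 0.348% to 0.494% of the FPKM sum of the KYSE70 libraries, against 0.062% to 0.076% in KYSE450. In bulk RNA, fewer cells with a message and less message per cell cannot be told apart.

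**Figure D1:**
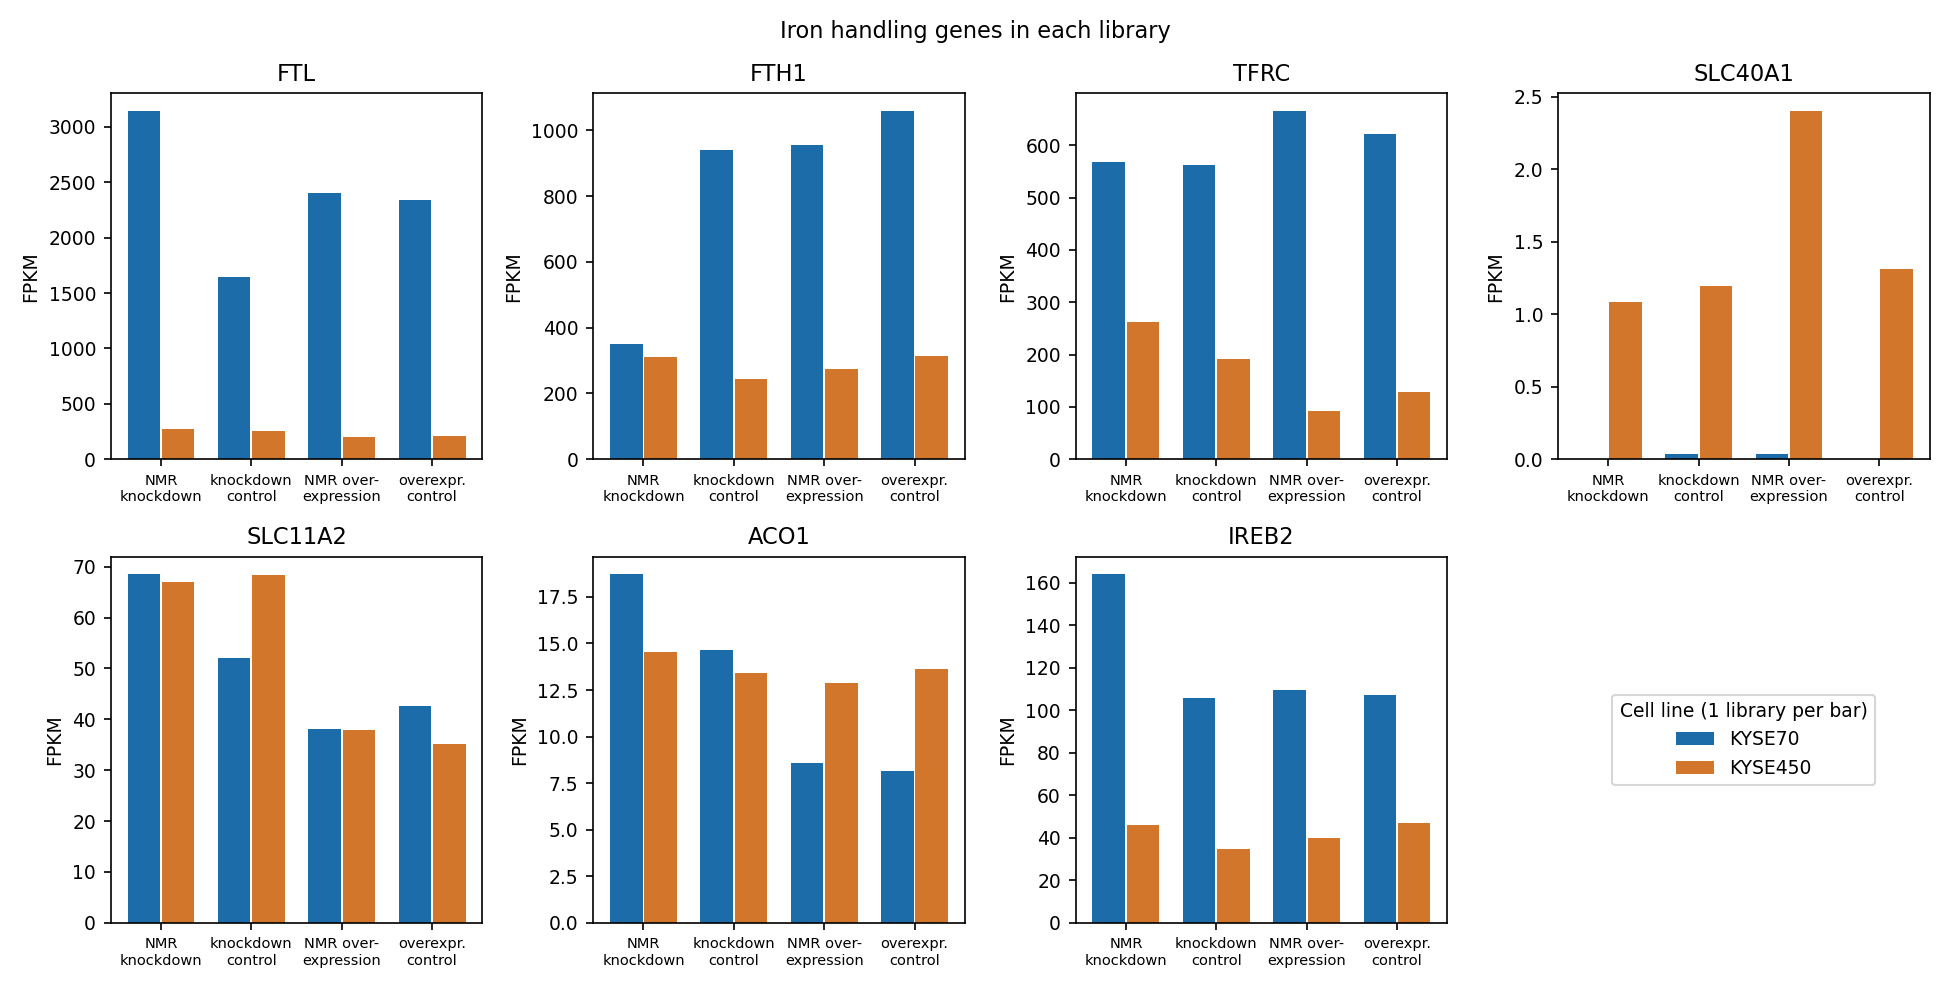
FPKM of the 7 iron genes (vertical axes, each from 0) in the 4 groups (horizontal axes), 1 library per bar, blue for KYSE70 and orange for KYSE450. FTL, FTH1, TFRC and IREB2 are higher in every KYSE70 library than in any KYSE450 library, and SLC40A1 is near 0 in KYSE70.

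In the knockdown pair of KYSE70 the ferritin chains parted. FTL was 1.91 times its control there and FTH1 0.371 times, or 0.93 and -1.43 in log2(FPKM + 1). For FTL that control, at 1649 FPKM, was the lowest KYSE70 library, at -0.50 in log2 from the overexpression control. The knockdown library, at 3144 FPKM, lay above 2405 FPKM with overexpression and 2338 FPKM in the overexpression control. In the KYSE450 pair both were above their control, FTL at 1.10 times and FTH1 at 1.27 times. Of the 14311 genes tested, 312 (2.18%) had a difference at least as high as FTL in the KYSE70 pair and 148 (1.03%) one at least as low as FTH1. Past 2-fold, FTH1 was the 1 gene of the 7 to be lower in that pair and 0 were higher, where 535 genes (3.74%) were that low and 240 (1.68%) that high. The KYSE70 knockdown library was the one with the shift by GC content. FTL and FTH1 are both above the median GC content of tested genes, at 56.3% and 53.9% against 49.3%. After loess trends on GC and length were taken out, the KYSE70 pair stood at 1.24 for FTL and -1.14 for FTH1, and the KYSE450 pair at 0.13 and 0.32. The part of the shared deviation of this library in the chain values was otherwise not tested.

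Over both lines, FTL had a knockdown difference of 0.53 (SE 0.23, n = 2 pairs, adjusted p 0.4003 in limma) and FTH1 one of -0.54 (SE 0.37, adjusted p 0.532). Neither passed the threshold of 0.05, and FTH1 had opposite signs in the lines. None of the 7 genes was called with knockdown, and limma called 0 of the 14311 genes (0%), with 1794 (12.5%) at an unadjusted p under 0.05 and 4 called by limma's voom on recovered reads. Without either KYSE450 knockdown library the fit rests on the KYSE70 pair, assumed to vary like the overexpression pairs. FTL, FTH1, SLC11A2 and IREB2 then passed, at adjusted p up to 0.0375, as did up to 4833 genes in all.

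With overexpression the ferritin genes stayed near their controls. FTL differed by 0.04 in KYSE70 and -0.10 in KYSE450, a fitted -0.03 (SE 0.23, n = 2 pairs). FTH1 was lower in both pairs, at -0.15 and -0.18 in log2, a fitted -0.17 (SE 0.37). Both had an adjusted p of 0.9998 in limma, which called 0 of 14311 genes (0%) for overexpression, with 148 (1.03%) at an unadjusted p under 0.05 and 0 called by voom. None of the 6 tested iron genes reached an unadjusted p of 0.05 there.

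**Figure D2:**
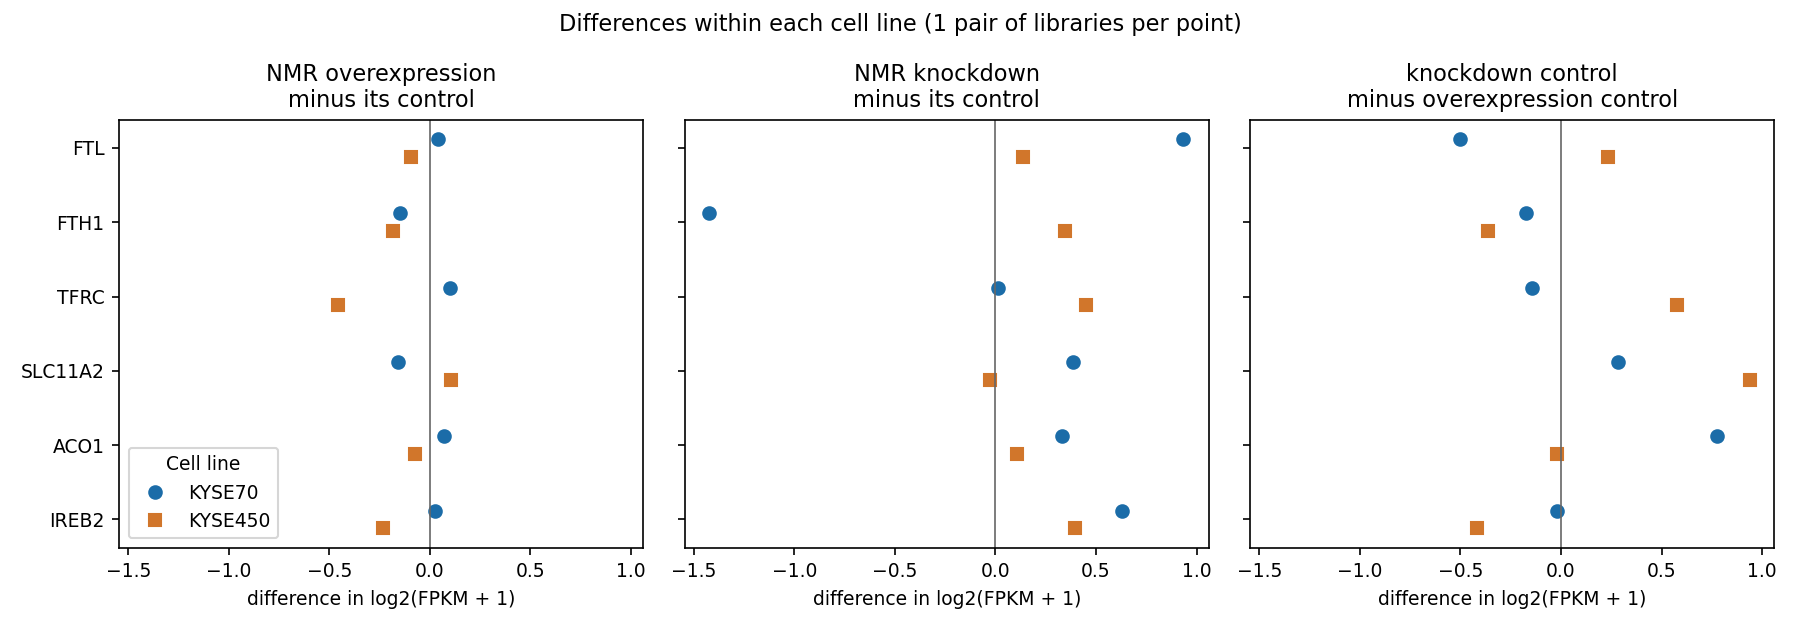
Difference in log2(FPKM + 1) within each line (horizontal axis) for the 6 tested iron genes (vertical axis), for overexpression minus its control, knockdown minus its control and knockdown control minus overexpression control, 1 pair of libraries per point. The widest point is FTH1 with knockdown in KYSE70, at -1.43, against 0.35 in KYSE450.

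Ferritin pseudogenes, near-identical copies that can take reads of their parent genes, were listed at low levels. The tables list 25 FTH1 and 16 FTL pseudogenes, of which 25 of the 41 were above 0 in any library. Their sum was 1.33 to 3.19 FPKM for the FTH1 copies, or 0.161% to 1.31% of FTH1, and 0.414 to 4.41 FPKM for the FTL copies, or 0.018% to 2.21% of FTL. FTLP14 had the highest mean, 1.02 FPKM. FTLP12 was listed at 0 in every KYSE70 library and at 1.37 to 2.36 FPKM in KYSE450, the line with less FTL. The handling of reads that match several copies was not stated in the labels.

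Of the uptake genes, TFRC was higher in KYSE70 and SLC11A2 was not. TFRC stood at 568.8 FPKM with knockdown, 563.1 in the knockdown control, 665.6 with overexpression and 621.8 in the overexpression control of KYSE70. In KYSE450 it stood at 262.3, 191.9, 92.98 and 128.1 FPKM in the same groups. KYSE70 varied little between groups, while in KYSE450 both libraries of the knockdown arm lay above both of the overexpression arm. The means were 605 ± 48.4 FPKM in KYSE70 and 169 ± 74.6 FPKM in KYSE450 (SD, n = 4 each), with a log2 difference of 1.94 (SE 0.27, adjusted p 0.00112 in limma). With knockdown TFRC was 0.01 above its control in KYSE70 and 0.45 in KYSE450, a fitted 0.23 (SE 0.20, adjusted p 0.609 in limma). After the same removal of GC and length trends the KYSE70 pair stood at -0.28, the KYSE450 pair at 0.46 and the fitted value at 0.091. With overexpression it stood at 0.10 in KYSE70 and -0.46 in KYSE450, a fitted -0.18 (SE 0.20, adjusted p 0.9998).

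SLC11A2 divided the libraries by arm and not by line. It stood at 68.50 FPKM with knockdown, 52.13 in the knockdown control, 38.20 with overexpression and 42.68 in the overexpression control of KYSE70. The KYSE450 values were 67.10, 68.40, 37.82 and 35.12 FPKM in the same groups. All 4 libraries of the knockdown arm (52.1 to 68.5 FPKM) lay above all 4 of the overexpression arm (35.1 to 42.7 FPKM). Of the 14311 genes tested, 931 (6.51%) did the same and 483 (3.38%) the reverse, and SLC11A2 was the only one of the 7 iron genes to do either. Between the 2 controls its log2 difference was 0.61 (SE 0.20, n = 2 pairs, adjusted p 0.251 in limma), and the pairs stood at 0.28 in KYSE70 and 0.94 in KYSE450. Limma called 0 of 14311 genes (0%) between the controls, with 2078 (14.5%) at an unadjusted p under 0.05, 1425 of them higher (9.96%), SLC11A2 included at p 0.0165. With all 4 libraries of each arm, a comparison added after the values were seen, the log2 difference was 0.72 (SE 0.13, adjusted p 0.0115 in limma), where 2055 genes (14.4%) were called, 1432 of them higher (10.0%). That comparison holds the manipulations as well as the delivery, and the virus, the transfection and the manipulations cannot be told apart.

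The fitted differences of SLC11A2 within the arms were smaller than between the controls, though in KYSE70 the knockdown pair (0.39) lay above the pair of controls (0.28). With knockdown it differed by 0.39 in KYSE70 and -0.03 in KYSE450, a fitted 0.18 (SE 0.16, adjusted p 0.625 in limma), or 0.097 after removal of GC and length trends. With overexpression the pairs stood at -0.16 in KYSE70 and 0.10 in KYSE450. Between the lines the log2 difference was -0.02 (SE 0.14, adjusted p 0.926).

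The exporter SLC40A1 was barely detected in KYSE70. It had 0 reads with knockdown, 1 in the knockdown control, 1 with overexpression and 0 in the overexpression control of KYSE70, or at most 0.0374 FPKM, where a count of 0 allows up to 3 reads. In KYSE450 it had 32, 46, 71 and 36 reads in the same groups, or 1.08, 1.20, 2.40 and 1.32 FPKM. Every KYSE450 library lay above every KYSE70 library. The total was 2 reads in KYSE70 and 185 in KYSE450, and the ratio of KYSE450 over KYSE70, adjusted for depth, was 85.6 (exact 95% interval 23.4 to 712). The interval covers counting error only. With a mean of 0.759 FPKM the gene was under the filter of 1 FPKM and was not part of the tests. In a fit with no filter the log2 difference between KYSE70 and KYSE450 was -1.27 (SE 0.14, adjusted p 0.00280 in limma), a scale that understates changes of low genes. Within KYSE450 the overexpression library had 1.83 times the reads of its control after depth adjustment (exact interval 1.21 to 2.81), and the knockdown library 0.904 times (0.557 to 1.45). These ratios compare single libraries and not conditions.

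The iron regulatory proteins differed from each other between the lines. IREB2 stood at 163.8 FPKM with knockdown, 105.7 in the knockdown control, 109.3 with overexpression and 107.2 in the overexpression control of KYSE70. In KYSE450 it stood at 45.93, 34.72, 39.71 and 46.77 FPKM in the same groups. The other 3 KYSE70 libraries lay within 105.7 to 109.3 FPKM, and the knockdown library lay above them. The means were 121.5 ± 28.2 FPKM in KYSE70 and 41.8 ± 5.66 FPKM in KYSE450 (SD, n = 4 each), with a log2 difference of 1.502 (SE 0.14, adjusted p 0.000144 in limma). With knockdown IREB2 was higher than its control in both pairs, by 0.63 in KYSE70 and 0.39 in KYSE450, a fitted 0.51 (SE 0.15, p 0.0107, adjusted p 0.328). It was the only one of the 6 tested iron genes with an unadjusted p under 0.05 for knockdown, where 12.5% of all genes had one and 6.06% had one and were higher. Its GC content is 40.8%, and after the same removal of trends the pairs stood at 0.30 in KYSE70 and 0.40 in KYSE450.

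ACO1 stood at 18.71 FPKM with knockdown, 14.67 in the knockdown control, 8.589 with overexpression and 8.145 in the overexpression control of KYSE70. KYSE450 had 14.52, 13.40, 12.86 and 13.61 FPKM in the same groups. KYSE70 thus spanned the whole KYSE450 range, with the knockdown arm above it and the overexpression arm below. The log2 difference between the lines was -0.19 (SE 0.20, adjusted p 0.471 in limma). Between the controls it was 0.78 in KYSE70 and -0.02 in KYSE450, a fitted 0.38 (SE 0.29, adjusted p 0.580). With knockdown ACO1 stood at 0.33 in KYSE70 and 0.11 in KYSE450 (fitted 0.22, SE 0.15, adjusted p 0.539). After removal of GC and length trends the KYSE70 pair stood at 0.1003 and the fitted value at 0.092.

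Between the lines, then, 4 of the 6 tested genes were higher in KYSE70 (FTL, FTH1, TFRC and IREB2), 0 were lower and 2 did not pass. Of all 14311 genes, 7726 (54.0%) were called, 3810 higher (26.6%) and 3916 lower (27.4%). All 4 KYSE70 libraries lay above all 4 KYSE450 libraries in 3449 genes (24.1%), these 4 included, and below them in 3506 (24.5%); SLC40A1 also lay below but is not among the genes tested. With this many genes apart, the number of iron genes called is no result particular to them.

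The balance within each library followed these levels. FTL over FTH1 was 9.01 with knockdown, 1.75 in the knockdown control, 2.52 with overexpression and 2.21 in the overexpression control of KYSE70. In KYSE450 it was 0.891, 1.03, 0.725 and 0.683. Light chain message exceeded heavy chain message in every KYSE70 library and in 1 of the 4 KYSE450 libraries. The KYSE450 count depends on the length used: per kilobase of longest coding transcript the ratio was 2.80 to 14.4 in KYSE70 and 1.09 to 1.65 in KYSE450, above 1 in all 4 libraries of each line. TFRC over FTH1, uptake against storage, was 1.63, 0.599, 0.697 and 0.587 in KYSE70 and 0.847, 0.789, 0.337 and 0.410 in KYSE450, in the same group order. The KYSE70 knockdown library had the highest value, 0.857 per longest coding transcript, where all 8 libraries lay below 1, and in KYSE450 the knockdown arm lay above the overexpression arm. IREB2 over ACO1 was 8.76, 7.20, 12.7 and 13.2 in KYSE70 and 3.16, 2.59, 3.09 and 3.44 in KYSE450, so IREB2 message exceeded ACO1 message in all 8 libraries, on either length.

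**Figure D3:**
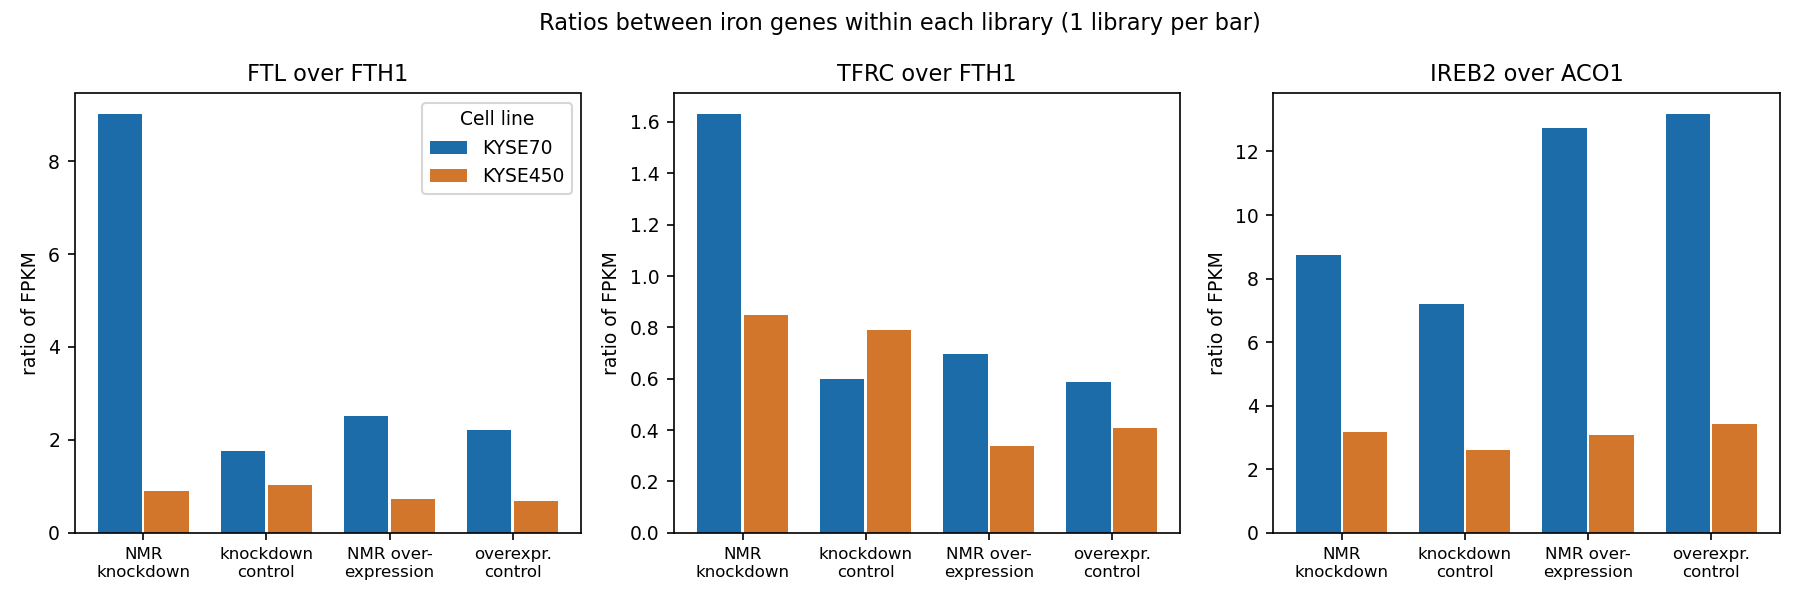
Ratio of FPKM between pairs of iron genes within each library (vertical axes from 0), by group (horizontal axes), 1 library per bar. FTL over FTH1 is 9.01 in the KYSE70 knockdown library and 0.683 to 2.52 in the other 7.

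By median FPKM over the 8 libraries the order of levels was FTL (962), TFRC (413), FTH1 (331), IREB2 (76.2), SLC11A2 (47.4), ACO1 (13.5) and SLC40A1 (0.560). FTL, TFRC and FTH1 overlapped between neighbours across libraries, and each was higher in every KYSE70 library than in any KYSE450 library. By line median FTH1 lay above TFRC, at 947 against 595 FPKM in KYSE70 and 293 against 160 FPKM in KYSE450. The pooled order of TFRC and FTH1 thus held in neither line. FTL lay above FTH1 in KYSE70, at 2372 FPKM, and below it in KYSE450, at 232 FPKM. IREB2 and SLC11A2 overlapped as well, and ACO1 (8.145 to 18.71) and SLC40A1 (up to 2.40) lay apart from the genes above them. The order depends on the length each gene is divided by. The lengths implied by recovered reads were close to the mean transcript length of a gene (median ratio 1.002 over 13914 genes). Single genes lay further off, such as SLC11A2 (1479 implied against 1855 mean) and ACO1 (3583 against 4895). For TFRC the implied length is 1690 bases and the mean 1449, while its longest coding transcript has 5111. Per kilobase of longest coding transcript, the medians were 964 for FTL, 208 for FTH1, 136 for TFRC and 21.7 for IREB2. They were 16.1 for SLC11A2, 6.48 for ACO1 and 0.165 for SLC40A1. On this length FTH1 lay above TFRC in the pooled medians as well. Ratios between genes above shift by the same factors, whereas ratios of 1 gene between libraries do not.

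A wider list of 108 iron genes (101 besides the 7) placed these levels in their pathways; 91 were tested. Between the lines 56 of the 91 were called (61.5%), 34 higher (37.4%) and 22 lower (24.2%) in KYSE70, against 54.0% of all genes, 26.6% higher and 27.4% lower. The classes hold few genes and their counts are a description. Of 8 regulation genes 5 were higher and 0 lower, and of 9 genes of cytosolic iron-sulfur assembly 1 was higher and 5 lower. Of 17 heme genes 8 were higher and 3 lower, of 24 mitochondrial iron and iron-sulfur genes 8 and 6, and of 15 ferroptosis genes 7 and 2. Of 11 uptake genes 3 were higher and 5 lower, of 3 storage genes 2 were higher and 0 lower, and of 4 chaperone genes 0 were higher and 1 lower. Of the called genes 6 averaged under 1 FPKM in 1 line and passed the filter only through the other: SLC39A8, STEAP1, STEAP2 and LCN2, which are low in KYSE70, and ABCG2 and TMPRSS6, which are low in KYSE450. Such genes had to differ, so their calls support nothing. The median log2 difference was 0.18 over the list and -0.02 over all genes.

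**Figure D4:**
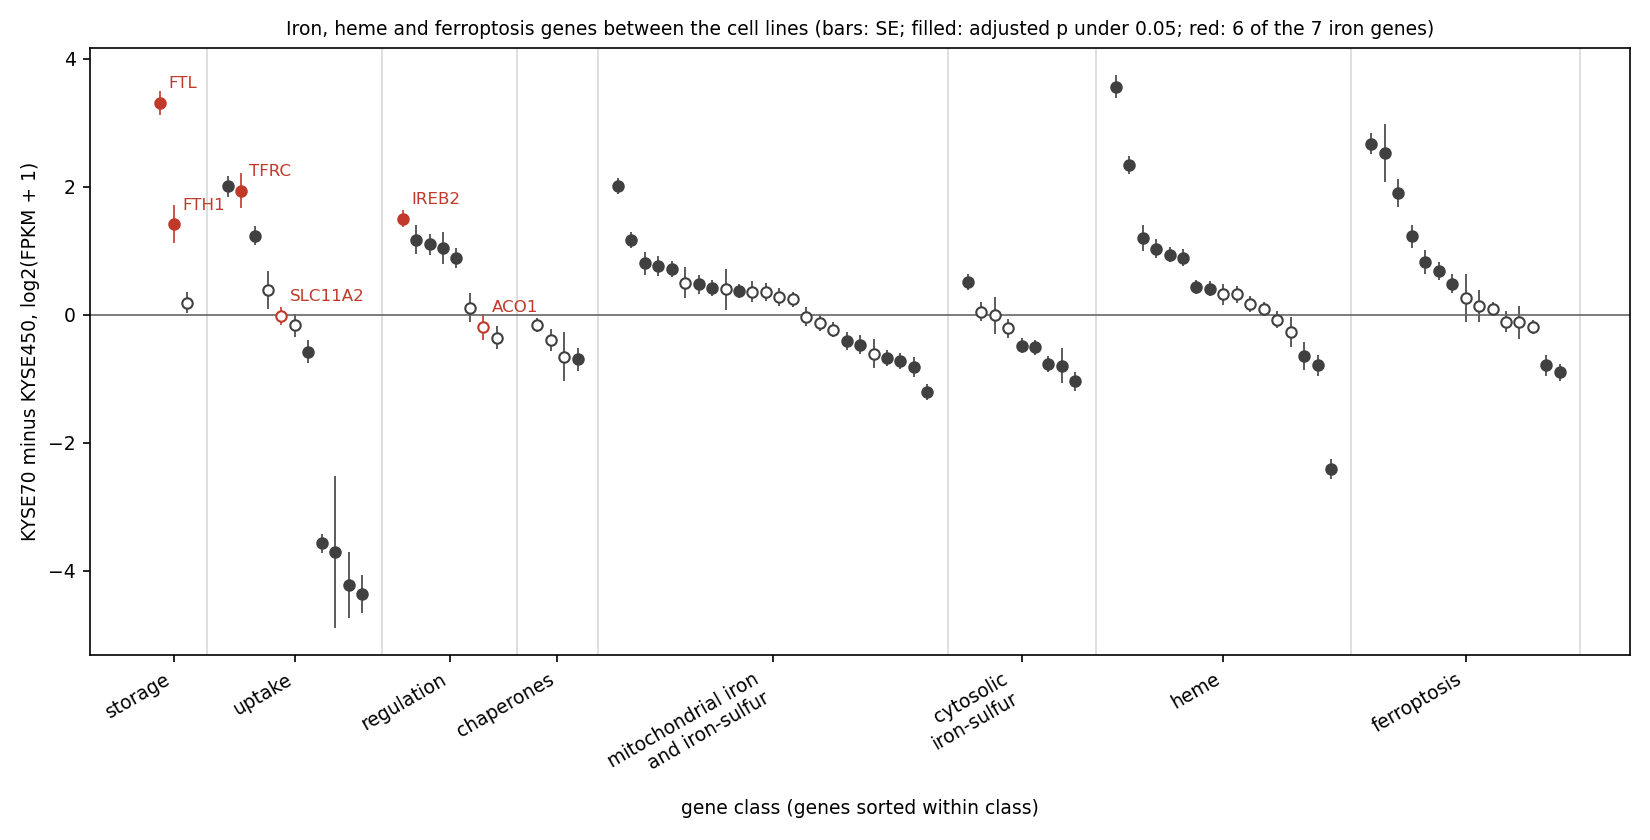
KYSE70 minus KYSE450 difference in log2(FPKM + 1) with its SE (vertical axis) for the tested genes of the wider iron list, sorted within class (horizontal axis); filled points passed an adjusted p of 0.05 and red points are 6 of the 7 iron genes. FTL, at 3.31, lies highest in storage and uptake, and the uptake class holds both called genes above 0 and the 4 lowest points, which are genes low in KYSE70 that passed the filter through KYSE450.

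Heme turnover showed some of the widest gaps. HMOX1, the inducible heme oxygenase that frees iron from heme, stood at 28.6 FPKM with knockdown, 63.7 in the knockdown control, 28.2 with overexpression and 28.8 in the overexpression control of KYSE70. In KYSE450 it stood at 2.53, 3.33, 1.19 and 1.52 FPKM, with a log2 difference of 3.57 (SE 0.18, adjusted p 1.10e-05 in limma). HMOX2, the constitutive enzyme, went the other way, at 17.8 to 31.2 FPKM in KYSE70 and 101 to 141 FPKM in KYSE450 (log2 difference -2.41, SE 0.16, adjusted p 3.38e-05). The heme transporter gene SLC48A1 was higher in KYSE70, at 2.34 (SE 0.14).

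The uptake genes lay on both sides. SLC39A14 (ZIP14), a carrier of non-transferrin-bound iron, was higher in KYSE70 at 238 to 315 FPKM, against 52.8 to 113 FPKM in KYSE450 (log2 difference 2.01, SE 0.16, adjusted p 8.74e-05 in limma). Its relative SLC39A8 (ZIP8) was at most 0.0938 FPKM in KYSE70 and 9.85 to 13.4 FPKM in KYSE450. The STEAP family genes STEAP1 and STEAP2 were at most 0.258 and 0.0564 FPKM in KYSE70. In KYSE450 STEAP1 stood at 58.1 FPKM with knockdown, 56.2 in the knockdown control, 7.10 with overexpression and 7.06 in the overexpression control, and STEAP2 at 31.4, 37.4, 12.3 and 11.5. Both were thus high in the knockdown arm of KYSE450, like SLC11A2. Since SLC39A8, STEAP1 and STEAP2 passed the filter only through KYSE450, their differences between the lines are given as values with no test.

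Other called genes were SLC25A28 (mitoferrin 2, an importer of iron into mitochondria) at 2.02 (SE 0.13) and ACSL4, which activates polyunsaturated fatty acids and favours ferroptosis, at 2.68 (SE 0.16). The iron-sulfur scaffold gene NFU1 stood at -1.20 (SE 0.13).

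With knockdown 0 of the 91 list genes were called over all genes, and 12 (13.2%) had an unadjusted p under 0.05. Of these, 4 were higher (4.40% of the list) and 8 lower (8.79%). Of all genes 12.5% had one, and 6.06% had one and were higher. The ferrireductase gene STEAP3, which reduces iron in the endosome before SLC11A2 carries it, stood at 7.35 against 5.05 FPKM in KYSE70 and 16.2 against 8.92 FPKM in KYSE450, knockdown against its control (log2 0.63, SE 0.16, adjusted p 0.312). HEBP1, a heme-binding protein gene, stood at 0.51 (SE 0.14). GCLM, of glutathione synthesis, stood at 0.39 (SE 0.14), though its KYSE70 pair was at -0.035 after removal of GC and length trends. For STEAP3 and GCLM the knockdown control was the lowest library of each line, for GCLM at 48.4 FPKM in KYSE70 and 44.8 in KYSE450. In KYSE70 STEAP3 with knockdown lay below 9.92 FPKM with overexpression and 8.48 in the overexpression control. AIFM2, a ferroptosis suppressor gene, stood at -0.63 (SE 0.17), BOLA2B at -1.35 (SE 0.43), with the KYSE70 pair at -2.40 and the KYSE450 pair at -0.29, and HMOX1 at -0.71 (SE 0.22). BOLA2B has a near-identical copy, so its value is uncertain. In KYSE70 HMOX1 with knockdown was close to both overexpression libraries, and the knockdown control was the library apart from the other 3.

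With overexpression 0 of the 91 were called and 0 had an unadjusted p under 0.05, and the genes named by the rule had fitted differences within 0.28. HFE, a modifier of transferrin receptor function, stood at 0.24 (SE 0.20), ERFE at 0.20 and STEAP3 at 0.14, and NUBP1 at -0.28 (-0.35 in KYSE70 and -0.21 in KYSE450), UROS at -0.19 and NFU1 at -0.17. CHAC1, named after its values were seen, was the 1 list gene past 2-fold. The share of all genes past 2-fold is not given here for these pairs. CHAC1 stood at 10.5 FPKM with overexpression and 2.24 in the control of KYSE450 (4.69 times), against 5.66 and 5.67 FPKM in KYSE70. The fitted difference was 0.91 (SE 0.51, adjusted p 0.9998 in limma). Between the controls 0 of the 91 were called and 17 (18.7%) had an unadjusted p under 0.05, 12 higher (13.2%) and 5 lower (5.49%). Of all genes 14.5% had one, and 9.96% had one and were higher. Of the 17 list genes, PTGS2 and TMPRSS6 were under 1 FPKM in every overexpression arm library and passed the filter only through the knockdown arm. Such genes had to differ between the arms, so their p-values support nothing. PTGS2 stood at 9.34 against 0.810 FPKM in KYSE70 and 20.6 against 0.827 FPKM in KYSE450, knockdown control against overexpression control. CHAC1, like PTGS2 a stress gene used as a ferroptosis marker, had a log2 difference of 3.14 (SE 0.52, adjusted p 0.108 in limma). HMOX1 stood at 0.95 (SE 0.25), and KEAP1, GCLM and ABCB10 at -0.98, -0.64 and -0.76, each with the same sign in both lines.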

How the data were processed

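The authors deposited 1 table per library with 1 value per gene. The labels name no unit; it was inferred, since the deposited values behave as FPKM. Within each of 30872 genes above 0 in 2 or more libraries, values were whole multiples of 1 step after a factor per library, within 0.02, and whole reads were recovered; reads and fragments cannot be told apart. Per the submitters' processing notes, TopHat2 2.0.9, HTSeq 0.6.1 and build hg19 were used, with no roles given. Neither strand setting nor annotation is stated in the labels, so reads of overlapping antisense genes cannot be separated.

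The 14311 genes that averaged 1 FPKM or more were fitted as log2(FPKM + 1) in limma 3.58.1 (trend) with R 4.3.3, over all 8 libraries. Overexpression and knockdown used a term for each of the 4 pairs (2 residual degrees of freedom); cell line and the comparison of controls used line and group (3 residual degrees of freedom). Adjustment was by the Benjamini-Hochberg method over all genes tested, at a threshold of 0.05. The fits were also run on data simulated from the fitted model itself, with normal noise. That run cannot show how they behave with a deviating library or a shift by GC content. Pairs come from the same cell line: libraries of KYSE70 correlated at 0.949 to 0.996 and those of KYSE450 at 0.955 to 0.994. Coordinates, GC content and transcripts come from GENCODE 29 on GRCh38; no coordinate was converted from hg19. GC and length trends were removed by loess (span 0.3). Other steps used Python 3.11.15.

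The 7 genes and the wider list were chosen with earlier results of these data known. Genes of the wider list were named by a rule: up to 5 called genes in each direction by p, filled up to 3 with genes of the same sign in both lines, ranked by the smaller change. Members with a similar pattern are the 3 genes with the highest Pearson correlation after each line was centred. Alternatives changed the pseudocount, filter, scaling, test, block and libraries in the fit.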

Additional observations from a re-analysis of the deposited data

Results flagged for a closer look

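In all, 4 values of the KYSE70 knockdown library lay far from the other 3 libraries of that line by Dixon's test, of 20 sets of 4 libraries looked at, where chance marks about 1 in 20. They were FTH1 at 349 FPKM, IREB2 at 163.8 FPKM, FTL over FTH1 at 9.01 and TFRC over FTH1 at 1.63. These values share FTH1 or the library and are not independent, and the same library has the mitochondrial share and the shift by GC content given above.

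The lines had differences of opposite sign for 10 of the 18 pairs of differences looked at, and these gaps were not tested. The share over all genes was not counted and random signs often differ, so the number is no result particular to these genes. Some of the differences were small in both lines, such as FTL (0.04 and -0.10) and ACO1 (0.07 and -0.08) with overexpression. With 1 pair per line, any 2 signs that differ are included. KYSE70 minus KYSE450, the log2 differences lay apart by 0.14 for FTL, 0.56 for TFRC, -0.26 for SLC11A2, 0.14 for ACO1 and 0.26 for IREB2 with overexpression. With knockdown they lay apart by -1.77 for FTH1 and 0.41 for SLC11A2. Between the controls they lay apart by -0.74 for FTL, -0.72 for TFRC and 0.80 for ACO1.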

How the results depend on the processing

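For the 6 tested genes, 380 of 414 values under the alternatives kept their direction and their side of the threshold. Changes of sign without a library left out were small. With overexpression ACO1 was 0.00516 under median-ratio scaling, and FTL was 0.0227 and SLC11A2 0.00114 under quantile normalization, and the causes were not tested. Between the arms over all 8 libraries FTL was 0.14 and IREB2 0.0860, against -0.14 and -0.22 between the controls. That fit is a different contrast, since it takes in the manipulations as well as the delivery. Leaving out each library gave, with overexpression, FTL -0.0961 to 0.0405, TFRC -0.46 to 0.10, SLC11A2 -0.16 to 0.10, ACO1 -0.0755 to 0.0684 and IREB2 -0.23 to 0.0274. With knockdown it gave FTH1 -1.43 to 0.35 and SLC11A2 -0.0273 to 0.39. Between the lines it gave SLC11A2 -0.11 to 0.11, and between the controls FTL -0.54 to 0.26, FTH1 -0.62 to 0.0865 and TFRC -0.0428 to 0.48. FTL, FTH1, TFRC and IREB2 stayed called between the lines in all of these fits.

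Without the replicate block, 0 genes were called for overexpression, knockdown and the controls, and the block changed no call. For overexpression the 4 libraries alone called 12 genes, and leaving out 1 library called 0 to 12. For knockdown a pseudocount of 0.1 called 3, voom 4 and the 4 libraries alone 37, and leaving out 1 library called 36 to 4833. It called 580 without the KYSE70 knockdown library and 582 without its control, 4833 without the KYSE450 knockdown library and 4832 without its control. Between the lines the 4 controls alone called 3211, and leaving out 1 library called 6077 to 7651. Between the controls the 4 controls alone called 73, all 8 libraries 2055, and leaving out 1 library called 0 to 11. Of the 91 list genes, an unadjusted p called 12 for knockdown and 17 between the controls. The 4 controls alone called 23 between the lines and 2 between the controls, and all 8 libraries called 11 between the arms. Leaving out 1 library called 0 to 0 list genes for overexpression, 0 to 34 for knockdown, 42 to 56 between the lines and 0 to 2 between the controls. Fits of 4 libraries have 1 residual degree of freedom. Depth limits SLC40A1, with 2 reads over 4 KYSE70 libraries, where a level under 3 reads in a library is not detectable.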

Other observations

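Genes whose pattern lay closest to each iron gene over the 8 libraries, after each line was centred on its own mean, are given as a description; the libraries share lines, and the KYSE70 knockdown library weighs heavily. For FTH1 they were ENSA (r 0.996), PSMB10 (0.996) and POLR2J (0.995), and for FTL FASTKD1 (0.989), ARMC10 (0.989) and NUP107 (0.983). For IREB2 they were PRRC2C (0.988), SHPRH (0.987) and MAP3K7 (0.985), and for ACO1 STX17 (0.996), TPPP (0.994) and SPG11 (0.994). For SLC11A2 they were TC2N (0.995), CENPH (0.992) and ABHD17C (0.991), and for TFRC PPP1R9A (0.987), ITGA4 (0.985) and AC112229.7 (0.983). The closest genes of the ferritin chains are different genes, and the chains themselves had a correlation of -0.62 on this measure.

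In the KYSE70 knockdown pair GCLC and NFE2L2, of the antioxidant response, were past 2-fold higher. BOLA2B, CISD3, CIAO2B, NUBP1 and HMOX1 were past 2-fold lower. GCLC stood at 665 FPKM with knockdown and 314 in its control, both below 948 with overexpression and 828 in the overexpression control. After removal of GC and length trends GCLC stood at 0.86 and HMOX1 at -0.75 in log2, under 2-fold. NFE2L2, BOLA2B, CIAO2B and NUBP1 stayed past it, and CISD3 had no corrected value. In the KYSE450 pair CHAC1 and PTGS2 were past 2-fold lower, and the share of all genes that low is not given here. CHAC1 stood at 13.8 FPKM with knockdown and 47.6 in its control, and PTGS2 at 9.57 and 20.6. The overexpression library and its control were lower, at 10.5 and 2.24 FPKM for CHAC1 and 0.766 and 0.827 for PTGS2. With 1 library on each side, none of these pairs has a replicate.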
